A study of Drosophila melanogaster with 3 samples.

Results

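Long chains of closely spaced MCM sites were examined in Drosophila melanogaster S2-DRSC cells, a male line derived from late embryos and grown here as asynchronous cultures. The chains were chosen by position alone, from the list of peaks found in both MCM immunoprecipitations. Peaks on the major arms 2L, 2R, 3L, 3R and X were sorted by their centres, neighbours with centres 5000 bp or less apart were joined, and chains of 6 or more peaks were kept. This gave 62 chains with 469 peaks, out of 5612 peaks on the major arms and 5726 in the whole series (8.36% of the major-arm peaks). The 3 samples of the study are 2 chromatin immunoprecipitations with a pan-MCM2-7 antibody, called replicate 1 and replicate 2, and 1 sample of input DNA that comes without a list of peaks here. Separate cultures are not named in the labels, so the spread between replicates may be technical. Sequencing depth is unknown, because the files give peaks and not reads.

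The MCM2-7 complex is the ring-shaped helicase that unwinds DNA at replication forks. It is loaded onto chromatin before S phase by the origin recognition complex together with Cdc6 and Cdt1, in an inactive form, and only part of the loaded complexes are later fired as origins. Loaded complexes can lie away from the origin recognition complex and several can share a stretch of chromatin, so neighbouring MCM sites need not each be an origin in every cell. The cultures here mix all phases of the cell cycle, and a chain therefore averages over cells and times.

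Positions of peaks defined the chains, so their number, spacing and length describe what was selected. Width and score come from the same peak calls, and there is 1 group of immunoprecipitations, so no test over samples could be made and none is given. Differences are set beside the values of each replicate instead, as descriptions. The score was set by the authors for each peak, its unit is not named, and it is used only to describe and rank peaks. Positions are on FlyBase release 5.1. Gene content and sequence at these positions were not analysed here, because no genome of that release was in hand.

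Most MCM peaks stood alone or in short groups. Of 3325 chains on the major arms, counting single peaks as chains of 1, 2079 held 1 peak, 727 held 2, 275 held 3, 125 held 4 and 57 held 5. Just inside the limit were 27 chains of 6 peaks (162 peaks), and just outside it the 57 chains of 5 (285 peaks). Above these were 15 chains of 7, 8 of 8, 6 of 9, and 1 each of 11, 12, 13, 14, 15 and 19 peaks. No chain had 10 peaks. The number of chains was thus smaller at each length from 1 to 9, with no break at the limit of 6. Peaks of the chains of 6 had a median score of 3.64 and a median width of 250.5 bp, and those of the chains of 5 had 3.57 and 257 bp, so both sides of the limit were alike in these values.

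**Figure D1:**
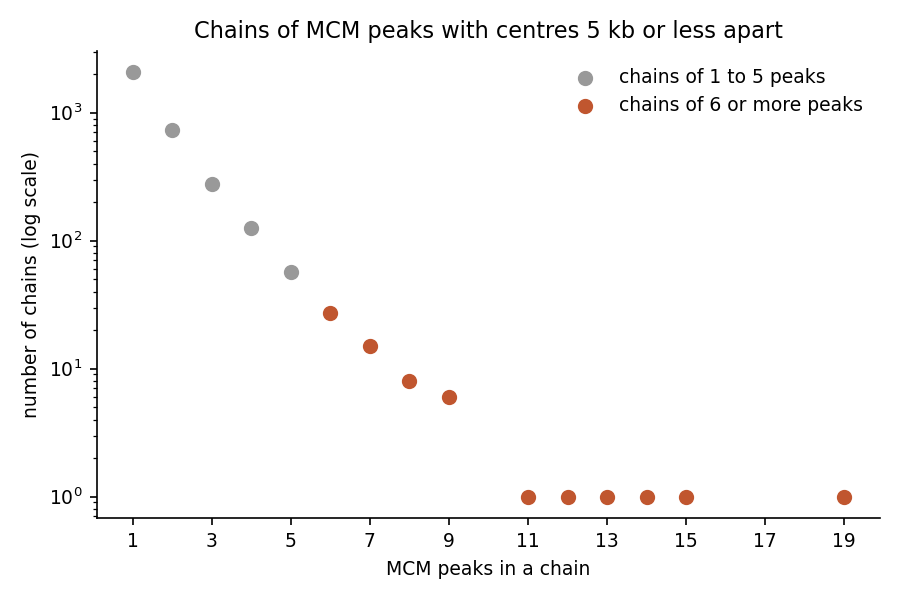
Number of chains (log scale) against the number of MCM peaks in a chain, for the major-arm peaks of the series list; orange points are the chains of 6 or more peaks described here. The number drops from 2079 single peaks to 57 chains of 5 and 27 chains of 6, and 6 chains hold 11 to 19 peaks.

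The chains covered little of the genome. Their spans ran from 5585 to 26873 bp with a median of 12381.5 bp, and together they made up 813.7 kb, or 0.684% of the major arms. Inside the spans there were 5.76 series peaks per 10 kb, against 0.472 over all major arms. Over 407 distances between neighbouring centres the median was 1571 bp (interquartile range 861.5 to 2804 bp). The smallest distance was 353 bp and the largest 4980 bp. Distances under 1000 bp made up 32.7% and distances under 2000 bp 59.7%. Chains of 2 to 5 peaks had nearly the same spacing, with a median of 1595 bp over 1880 distances and 35.2% under 1000 bp.

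Called peaks filled only part of each chain. Peak widths summed to a median of 21.0% of the span, from 9.63% to 87.0%. The median edge-to-edge gap was 990 bp, 205 of 407 gaps were under 1000 bp, and 134 were under 500 bp. Gaps under 200 bp occurred 7 times. In both replicate lists the smallest gap between neighbouring peaks on the major arms was exactly 200 bp, so 2 stretches of signal closer than that never appear as separate peaks within a replicate. The number of peaks in a chain is therefore a number of called intervals, and a broad stretch of MCM signal with dips of 200 bp or more can appear as several of them.

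Chains ended in different surroundings. The next peak beyond a chain end lay at a median of 12330.5 bp, from 5257 bp, just over the joining limit, to 589794 bp. Within 6 kb of an end there was another peak at 11 of 124 ends, and within 10 kb at 52. At 18 ends the next peak was over 50 kb away. Chains were usually far from each other, with a median of 512.7 kb to the nearest other chain on the same arm. Of the 62 chains, 12 formed 6 pairs within 50 kb. The closest pair was at 2R 6415522 to 6433415, where chains of 6 and 6 peaks were 4.96 kb apart from edge to edge.

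All 62 chains were also runs of peaks in each replicate taken alone. When the same joining rule was used on the replicate 1 list, the replicate 1 peaks of every chain fell in 1 replicate 1 chain, which held 6 to 33 peaks. In replicate 2 the same was true, with 6 to 88 peaks. Since each series peak holds overlapping peaks of both replicates, this follows largely from how the chains were chosen and is no separate support. The converse did not hold. Replicate 1 had 250 chains of its own with 2031 peaks (21.7% of its 9351 major-arm peaks), and replicate 2 had 171 with 1851 peaks (23.6% of 7848). Of these, 189 replicate 1 chains and 111 replicate 2 chains contained no chain of the series list.

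The 5 major arms differed in how many of their peaks were in chains. On X, 124 of 1048 peaks (11.8%) were in 15 chains. On 3R, 116 of 1378 peaks (8.42%) were in 16 chains, and on 2R 89 of 1090 (8.17%) in 13. On 2L, 70 of 1016 (6.89%) were in 9 chains, and on 3L 70 of 1080 (6.48%) in 9. X had the highest share and 3L the lowest.

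Shares of replicate peaks that lay in the chain spans gave a like order at the top. On X they were 8.21% in replicate 1 and 10.7% in replicate 2, which is 9.46% ± 1.76 (SD, n = 2). On 3R they were 6.62% and 8.62% (7.62% ± 1.41), and on 2R 5.60% and 7.04% (6.32% ± 1.02). On 2L they were 4.92% and 6.40% (5.66% ± 1.05), and on 3L 4.62% and 6.67% (5.64% ± 1.45). X was the highest and 3R the next highest in both replicates, in spans drawn from the joint list of both. The means of 2L, 2R and 3L differed by less than the replicate SDs, and the share was higher in replicate 2 than in replicate 1 on each of the 5 arms. Chain spans made up 1.01% of X, 0.736% of 3R, 0.674% of 2R, 0.510% of 3L and 0.494% of 2L. With chains of 6 or more built in each replicate alone, X was again highest but the other arms changed order. The shares in replicate 1 were 26.8% on X, 22.9% on 3R, 21.1% on 2L, 18.9% on 3L and 18.7% on 2R. Those in replicate 2 were 30.4% on X, 26.4% on 3L, 24.9% on 3R, 17.4% on 2R and 16.4% on 2L.

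Some long stretches of the arms held no chain. On 2L none lay between the chains ending at 5987299 and starting at 16278895, on 2R the first started at 5311536, and on 3L the last ended at 19093507. Series peaks in these stretches are not given, so an uneven spread of chains cannot be read from them. None of the 62 lay within 1 Mb of the centromere-proximal end of an arm, a stretch that held 96 series peaks in all. Within 2 Mb there were 2 chains, both on X, which held 14 of the 264 peaks there. Within 1 Mb of the distal, telomere-side ends there were 4 chains with 37 of 245 peaks, and within 2 Mb there were 7 chains with 56 of 542 peaks. Of the 37, 19 belonged to a single chain on 2L. Over all major arms 8.36% of peaks were in chains. These counts rest on few chains, and no difference between the ends was tested. Pericentromeric sequence in flies is repeat-rich and replicates late. Mappability was not measured.

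The chain with the most peaks was at 2L 478762 to 505634. Its 19 peaks spanned 26873 bp, the longest span of all, at a median spacing of 1078 bp, and covered 51.7% of it. This chain held 24 replicate 1 peaks and 26 replicate 2 peaks. Replicate 1 peaks covered 30.5% of the span with a median score of 2.30, and replicate 2 peaks covered 56.7% with a median score of 3.15. The series scores ran from 1.99 to 6.70 with a median of 3.09. It also held the widest peak of any chain, MCM_30 at 2L 479115 to 482590, which was 3476 bp wide. MCM_30 joined 2 replicate 1 peaks, the wider of 2313 bp, and 1 replicate 2 peak of 3442 bp. The chain was thus broader and higher in score in replicate 2, although both replicates gave nearly the same number of peaks.

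On X, 4 chains had 11 or more peaks. The chain at X 8781803 to 8802435 had 15 peaks over 20633 bp, with a median width of 402 bp and a median score of 2.71. It held 20 peaks in replicate 1 (median score 2.56, 30.0% of the span covered) and 21 in replicate 2 (3.06, 45.4%). Its widest peak, MCM_5087 (2622 bp), was 3 peaks in replicate 1 and 1 in replicate 2. The chain at X 19040712 to 19065194 had 14 peaks over 24483 bp, none wider than 905 bp, and a median score of 2.72. Here replicate 1 had 17 peaks with a median score of 2.59, and replicate 2 had 22 with 2.45, covering 20.2% and 19.1%. The preceding series peak was 118089 bp away, so this chain stood apart on one side. In these 2 chains the replicates were close in number of peaks or in covered share, but not in both.

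The chain at X 12635503 to 12659677 had 12 peaks over 24175 bp, with 15 peaks in replicate 1 (median score 2.43) and 19 in replicate 2 (3.31). Its series peaks had a median score of 2.99, and the highest scored 5.68. The highest single peak of replicate 1 there, at 12654610 to 12654635, was 26 bp wide, scored 15.4 and had no replicate 2 peak over it, so it belongs to no chain member. The chain at X 13196701 to 13218912 had 11 peaks over 22212 bp and was the most open of the 6 large chains, with 19.6% of the span covered. It held 12 peaks in replicate 1 and 14 in replicate 2, with median scores of 2.63 and 2.61. Further peaks followed at 5744 and 5257 bp beyond its ends, close to the joining limit.

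The widest interval on the major arms, MCM_5275 at X 12622955 to 12635343, lay directly between 2 chains without being a member of either. It was 12389 bp wide, so its centre was 7308 and 6416 bp from the neighbouring centres, although its edges were 371 and 159 bp from the chains. The chain before it, at X 12610006 to 12622583, had 7 peaks, a median score of 2.62, a median width of 831 bp and 63.2% of its span covered. Its widest peak, MCM_5271 (2998 bp), was 4 peaks in replicate 1 and 2 in replicate 2. The chain before, the wide interval and the chain after together made 20 series peaks over 49.7 kb, from 12610006 to 12659677. In replicate 1 the same stretch was a single chain of 33 peaks with a median score of 2.19, the largest of that list, since replicate 1 had 6 peaks where the series has the wide interval and replicate 2 has 1.

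On 3R the largest chain, at 19151848 to 19174088, had 13 peaks over 22241 bp with a median score of 3.31. It held the highest-scoring member of all chains, MCM_4167 at 3R 19157044 to 19157345, which scored 7.78 (7.87 in replicate 1 and 7.70 in replicate 2). There were 19 replicate 1 peaks with a median score of 2.78, and 25 replicate 2 peaks with 3.19. Of the replicate 2 peaks, 11 had no replicate 1 peak over them, against 2 of the replicate 1 peaks. In the replicate 2 list this chain was part of a run of 50 peaks over 50.9 kb.

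**Figure D2:**
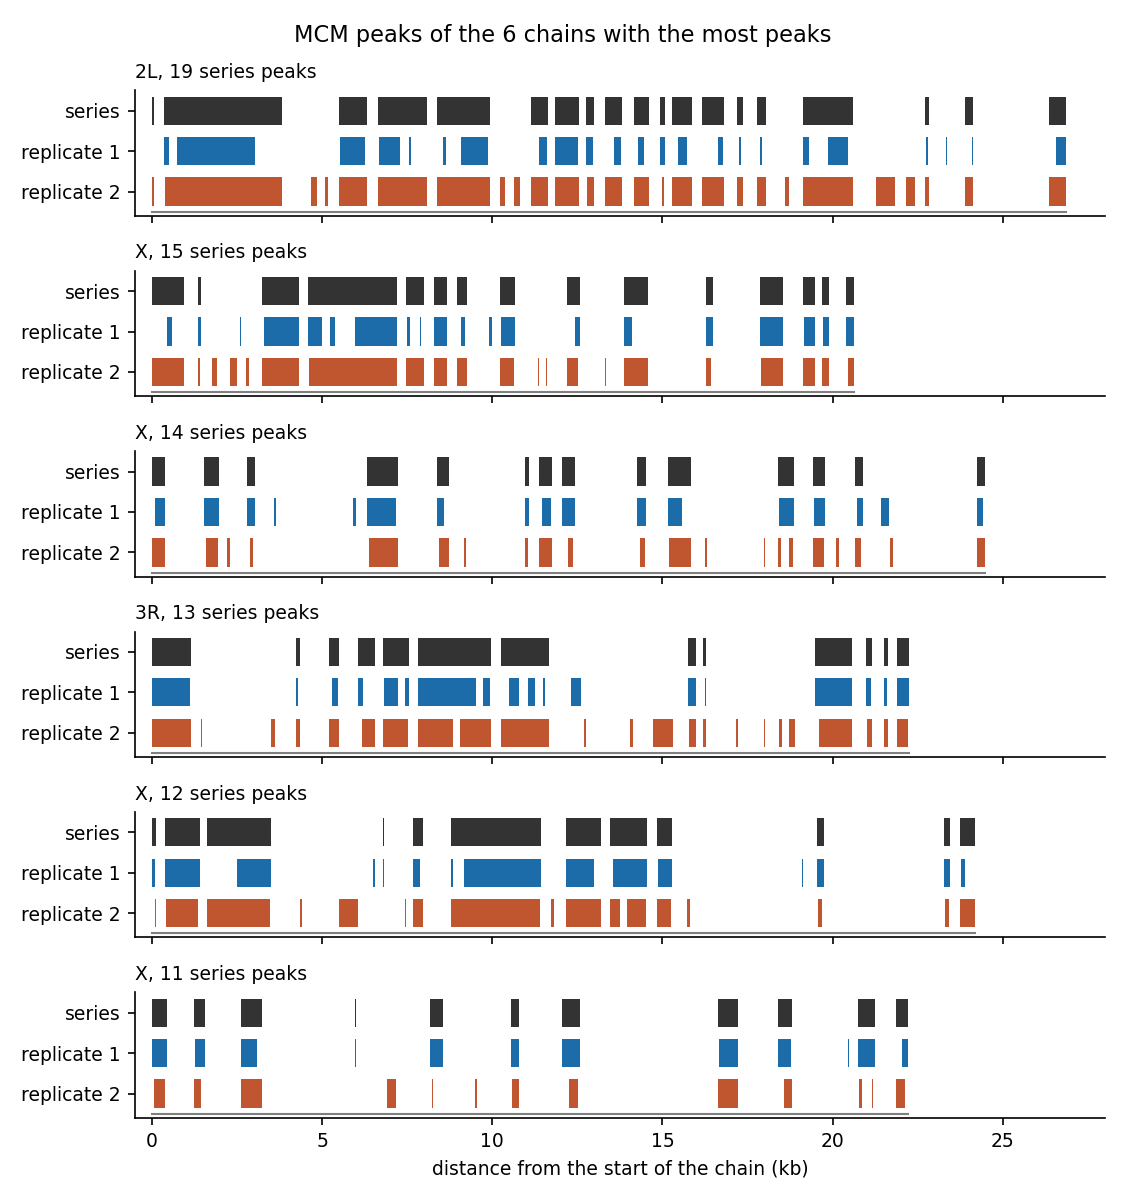
MCM peaks of the 6 chains with the most peaks, drawn to scale by distance from the chain start in kb, with the series list in black, replicate 1 in blue and replicate 2 in orange. The chain on 2L has 19 series peaks, 24 replicate 1 peaks and 26 replicate 2 peaks, and the called intervals of replicate 2 are broader there.

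The other large chains of 3R had 8 or 9 peaks. At 3R 12057061 to 12070691, the median width of the 9 peaks was 542 bp and a median score of 3.58, with 3.79 in replicate 1 and 3.36 in replicate 2. Low scores marked 3 others. The 8 peaks at 3R 15445692 to 15458825 had median scores of 1.68 in replicate 1 and 2.33 in replicate 2. At 3R 25597327 to 25615587 the 8 peaks were wide (median 763.5 bp) with median scores of 2.24 and 2.40, and at 3R 8836663 to 8849570 the 8 peaks had 2.20 and 2.68. Nearest the ends of the arm were 2 chains of 6 peaks, at 3939846 to 3952660 (median score 4.33) and at 27039060 to 27050482 (4.10), both above the 3.31 of the largest chain.

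On 2R no chain exceeded 9 peaks. The chain at 2R 9841144 to 9855846 had 9 peaks with median scores of 3.69 in replicate 1 and 3.65 in replicate 2, and 12 peaks in each replicate list. The chain at 2R 17588311 to 17602409 also had 9 peaks, narrower ones, with a median width of 187 bp and median scores of 3.54 and 3.89. The first chain of the arm, at 2R 5311536 to 5332515, was open, with 8 peaks covering 9.80% of 20980 bp. Of 8 peaks in each replicate there, none lacked a counterpart in the other. The last chain, at 2R 19752131 to 19760988, had 6 narrow peaks (117 to 261 bp).

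Both extremes of chain score in the series list were on 2R, and so were those of replicate 2. The lowest median, 1.94, belonged to the 7 peaks at 2R 6975403 to 6986451, with 1.76 in replicate 1 and 2.13 in replicate 2. These peaks were also the widest, with a median of 1534 bp, and they covered 87.0% of the span, the highest share of any chain, so this chain came close to 1 broad interval. About 98.3 kb away, at 2R 7084776 to 7094529, another chain of 7 had a median score of 4.33 and peaks of 339 bp at the median. The highest median, 4.61, belonged to the 6 peaks at 2R 19585345 to 19601840, with 4.10 in replicate 1 and 4.94 in replicate 2. In replicate 1 both extremes were on 3R, at 15445692 to 15458825 (1.68) and at 4869457 to 4883007 (5.18).

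On 3L the scores of the chains of 8 or 9 peaks were low. The chain at 3L 3445466 to 3461817 had 9 peaks with median scores of 2.65 in replicate 1 and 2.95 in replicate 2. A second one, at 3425428 to 3437612, was 7.85 kb away with 7 peaks (2.89 and 2.72). In the replicate 2 list both belonged to the same run of 88 peaks over 95.7 kb, the longest run of either list, with a median width of 110 bp and a median score of 2.52. Replicate 1 had 10 and 7 peaks in these 2 chains and replicate 2 had 16 and 16. Other chains of 7 peaks on 3L differed in score. That at 5346774 to 5359414 had 2.82 in replicate 1 and 2.63 in replicate 2. That at 14748167 to 14755194 had 3.73 and 3.74.

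The remaining large chains of 3L fell in the same range. At 3L 16036391 to 16054776, 8 wide peaks (median 1115 bp) covered 51.0% of the span and had median scores of 1.98 and 2.40. At 3L 19071533 to 19093507, 9 peaks spanned 21975 bp with 2.33 and 2.99. The 2 chains at 3L 10667314 to 10677092 (8 peaks) and 3L 10764685 to 10782287 (9 peaks) had median scores of 2.22 and 2.31 in replicate 1 but 3.47 and 3.47 in replicate 2. Replicate 2 scored higher in each of these 4 chains. The chain nearest the distal end, at 3L 767222 to 776312, had 6 peaks with the smallest median width, 123 bp, and a median score of 2.503.

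On 2L the other chains had 6 to 8 peaks. At 2L 5977352 to 5987299, 8 peaks had median scores of 3.50 in replicate 1 and 3.38 in replicate 2, and at 2L 5292892 to 5306977, 6 peaks had 3.74 and 3.10. The closest spacing of all chains, with a median of 718 bp, was at 2L 19423422 to 19430703, with 6 peaks, a median score of 4.39 and a median width of 156 bp. The widest spacing, 3795 bp, was at 2L 4444526 to 4458921, with 6 peaks and a median score of 4.08, and the next peak beyond it was 202262 bp away. The last chain of the arm, at 2L 19571937 to 19587516, had 7 peaks, of which MCM_895 was 2028 bp wide. Both the closest and the most widely spaced chain thus had series median scores above the 3.84 of peaks outside chains. In replicate 2 both were above the 3.82 of other peaks (4.66 and 4.19). In replicate 1, where other peaks had 3.81, the closest had 3.86 and the most widely spaced 3.69.

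Chain peaks were broader than other peaks. Their median width was 331 bp (interquartile range 189 to 516 bp), against 200 bp (139 to 312 bp) for the 5143 other peaks on the major arms. Series intervals run over the joined extent of overlapping replicate peaks, so the replicates were also taken alone. The replicate 1 peaks under a series peak covered a median of 275 bp in chains and 187 bp elsewhere. In replicate 2 the values were 215 and 119 bp. The mean difference was 92.0 bp ± 5.66 (SD, n = 2), with both replicates on the same side. In 51 of 62 chains the median series width was above the 200 bp of other peaks.

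Broad intervals were frequent in the longer chains. Of all chain peaks, 87 (18.6%) were 600 bp or wider, against 284 (5.52%) of the other peaks, and 8 were 2 kb or wider, against 9. The share varied with chain length. It was 5.56% of the 162 peaks in chains of 6, close to that of other peaks, while the chains of 5, outside the limit, had 13.7% of 285 peaks. In chains of 8 or 9 it was 24.6%, and in those of 11 to 19 it was 31.0%. Chains held 23.5% of the 371 major-arm intervals of 600 bp or more. Joined intervals, with several peaks of at least 1 replicate, made up 8.96% of chain peaks and 3.75% of others, but 2.47% in chains of 6 and 6.32% in chains of 5. Several replicate 1 peaks under 1 series peak occurred in 4.26% of chain peaks and 0.486% of others, and several replicate 2 peaks in 5.12% and 3.36%. In chains of 6 no series peak held several replicate 1 peaks. Elsewhere the replicate 1 extent was the wider in 81.3% of peaks, while in chains it was the wider in 60.6%.

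Scores of chain peaks were lower than those of other peaks. The median score was 3.29 (interquartile range 2.57 to 4.14) in chains and 3.84 (3.13 to 4.79) elsewhere. In replicate 1 the medians were 3.16 and 3.81, and in replicate 2 they were 3.34 and 3.82. The mean difference was -0.57 ± 0.13 (SD, n = 2), with both replicates below 0. The distributions overlapped widely: the lowest chain peak scored 1.43 and the highest 7.78. Chains had few of the strongest peaks, with 10 of 469 (2.13%) in the top 10% of major-arm scores (5.998 and above), against 10.7% of other peaks. In the bottom 10% (2.55 and below) were 113 chain peaks (24.1%), against 8.73% of other peaks. The limit of 6 did not mark this off, since the share was 11.1% in chains of 6 and 16.8% in chains of 5.

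The lower score was present at each width. Among peaks under 150 bp the medians were 3.14 in chains (71 peaks) and 3.95 elsewhere (1507). From 150 to under 300 bp they were 3.29 (143 peaks) and 3.87 (2225), and from 300 to under 600 bp 3.40 (168) and 3.75 (1127). At 600 bp or more they were 3.15 (87) and 3.64 (284). These classes use the width of the series peak. Chain peaks were lower in all 4, and this was also true within replicate 1 and within replicate 2. Across the 469 chain peaks width and score were nearly unrelated (Spearman's rho = -0.02), as they were across the other 5143 (rho = -0.06).

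Width and score varied with the number of peaks in a chain. Single peaks had median scores of 3.96 in replicate 1 and 3.95 in replicate 2. In chains of 2 they were 3.80 and 3.84, and in chains of 3 to 5 they were 3.70 and 3.69. For chains of 6 or 7 the values were 3.49 and 3.63, for those of 8 or 9 they were 2.84 and 3.17, and for those of 11 to 19 they were 2.67 and 3.07. Each step between these classes was downward in both replicates. By single length the fall was not steady: medians were 3.55 and 3.54 in chains of 5, and 3.58 and 3.76 in chains of 6. Median widths in replicate 1 went from 177 bp for single peaks to 254 bp in chains of 6 or 7, 329.5 bp in those of 8 or 9 and 267.5 bp in the longest. In replicate 2 they went from 111 bp to 175, 287 and 327 bp. The last 2 classes rest on 14 and 6 chains.

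**Figure D3:**
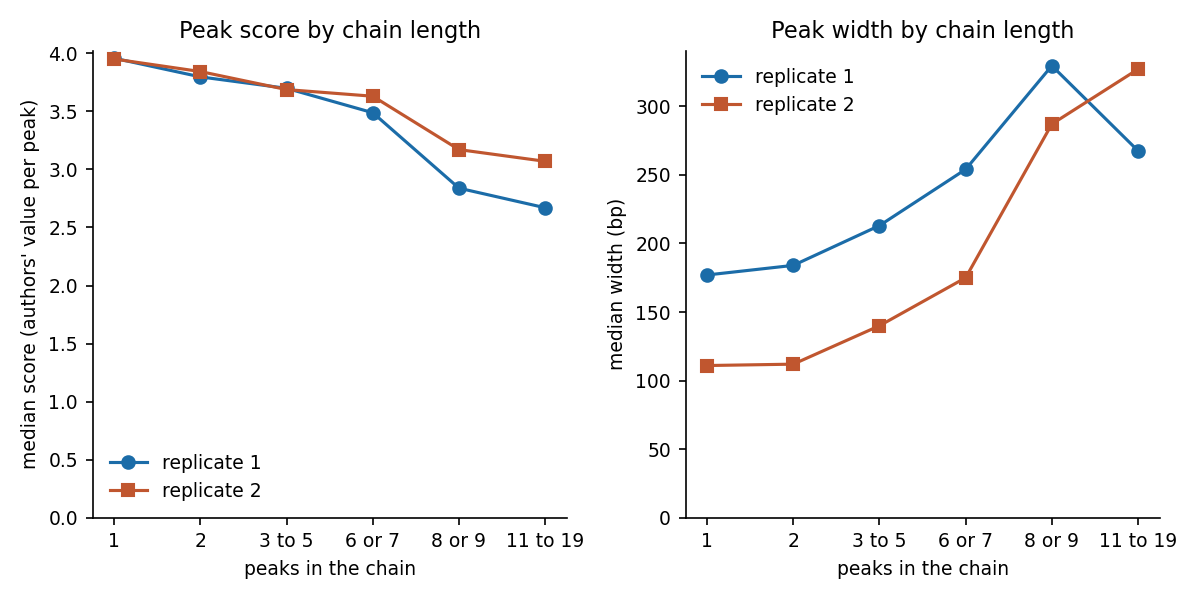
Median score (left, the authors' value per peak) and median width in bp (right) of the replicate peaks under each series peak, against the number of peaks in the chain, for replicate 1 (blue circles) and replicate 2 (orange squares). Scores go from 3.96 and 3.95 in single peaks to 2.67 and 3.07 in the chains of 11 to 19 peaks.

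The difference in score was uneven among arms. On 3L the medians were 2.79 in chains and 3.84 elsewhere, and on X they were 3.005 and 3.80. On 3R they were 3.40 and 3.82, on 2L 3.69 and 3.92, and on 2R 3.62 and 3.79. In replicate 1 chain peaks were lower on each of the 5 arms. In replicate 2 they were lower on 4, while on 2R both medians were 3.78. X and 3L together held 194 of the chain peaks, and differences among arms were not tested.

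Chains also differed from each other. Their median scores ran from 1.68 to 5.18 in replicate 1 and from 2.13 to 4.94 in replicate 2. In 39 of the 62 chains the median lay below that of peaks outside chains in both replicates (45 in replicate 1 and 41 in replicate 2). The order of the chains was similar in both lists (Spearman's rho = 0.78 over 62 chains, as a description, since the chains share libraries and the control of each list is not given). Differences between chains made up 35.5% of the variance of log2 scores among chain peaks, so most of it lay within chains. The small number of peaks per chain raises such a share, and no correction was made for it. The highest peak of a chain scored 2.14 times the lowest at the median, from 1.33 to 4.50 times. Chains with more peaks had lower median scores (rho = -0.44), and chains with wider peaks did too (rho = -0.35).

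**Figure D4:**
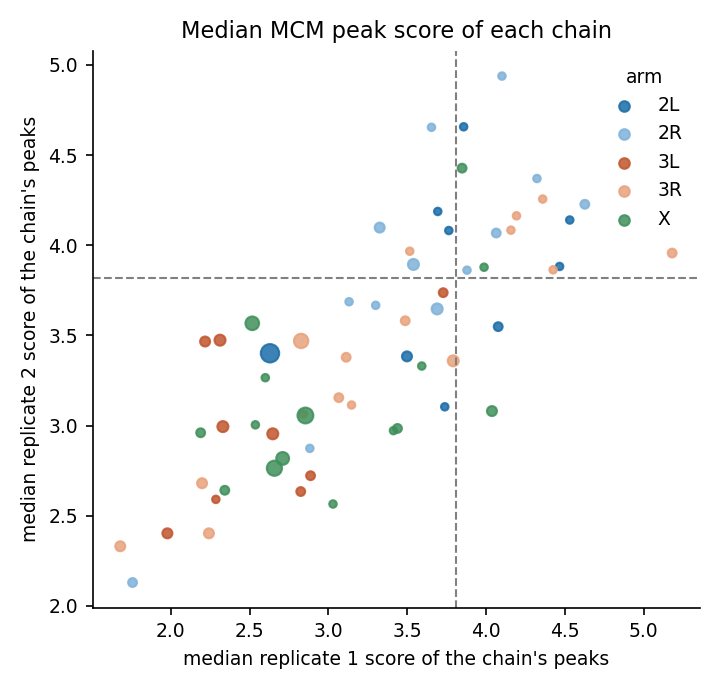
Median replicate 2 score against median replicate 1 score of the peaks in each of the 62 chains, coloured by arm, with larger points for chains of more peaks. Dashed lines mark the medians of peaks outside chains (3.81 and 3.82), and 39 chains lie below both.

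Position within a chain made little difference to score. The 124 end peaks had a median score of 3.26 and the 345 inner peaks 3.31. In replicate 1 the end peaks were slightly higher (3.20 and 3.13), and in replicate 2 they were lower (3.24 and 3.45), so the direction was not shared. End peaks were narrower, with median widths of 295.5 and 336 bp in the series list, 236.5 and 282 bp in replicate 1, and 187 and 226 bp in replicate 2. The top-scoring peak was an end peak in 14 of 62 chains and the widest peak in 15, and end peaks were 26.4% of all chain peaks. The same peak was both top-scoring and widest in 6 chains.

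Inside the chain spans more replicate peaks had a counterpart than outside. In replicate 1, 493 of 564 peaks in the spans (87.4%, exact 95% interval 84.4 to 90.0) shared 1 bp or more with a replicate 2 peak, against 58.9% (57.9 to 59.9) of 8787 outside. In replicate 2 the shares were 494 of 629 (78.5%, 75.1 to 81.7) and 73.7% (72.7 to 74.7) of 7219. The intervals cover counting error only. They take peaks as independent, although peaks in the spans are clustered in chains and all come from the same immunoprecipitations. They are therefore no test of the difference. Chains were built from shared peaks, so a higher share is what the choice gives. Peaks in spans were also wider, with medians of 228.5 and 130 bp in replicate 1 and 168 and 94 bp in replicate 2. By width, the replicate 1 share was higher in the spans than outside in all 4 classes, with 66.7% and 36.5% under 150 bp, 95% and 84.3% from 150 to under 300 bp, 99.4% and 93.3% from 300 to under 600 bp, and 100% and 99.2% above. In replicate 2 it was lower in the spans from 150 to under 300 bp (89.0% of 155, against 94.6% of 1518) and from 300 to under 600 bp (90.3% and 94.5%). It was higher at 600 bp or more (97.1% and 86.6%), while under 150 bp the shares were 63.0% and 65.0%.

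Unshared peaks within the spans were mainly short and weak. Without a counterpart were 71 replicate 1 peaks, 48 bp wide at the median and with a median score of 2.18, against 266 bp and 3.11 for the shared ones. The 135 in replicate 2 had 63 bp and 2.34, against 204 bp and 3.34. Outside the spans, unshared peaks scored higher, with medians of 3.19 in replicate 1 and 3.08 in replicate 2. They were short there too, with median widths of 71 and 36 bp. Some unshared peaks in the spans were strong. The top replicate 2 peak was unshared in the large chains starting at 3R 19151848 (7.79), X 8781803 (6.28) and X 12635503 (7.77). In the other chains of 10 or more peaks it was shared.

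Replicate 2 had relatively more peaks inside chains. Its number was 1.12 times that of replicate 1 in the spans and 0.822 times outside. Spans were drawn from shared peaks, which pulls the ratio there towards equal numbers, so this contrast follows in part from the choice. In the spans 493 replicate 1 and 494 replicate 2 peaks were shared, and 71 and 135 were unshared. Outside, 3611 replicate 1 and 1897 replicate 2 peaks were unshared. In 30 chains replicate 2 had more peaks, in 12 the numbers were equal and in 20 replicate 1 had more. The ratio was 1.5 or more in 9 chains, which held 60 of the 135 unshared replicate 2 peaks, and over the other 53 chains it was 1.02. The highest ratio, 2.29, was in the chain at 3L 3425428 to 3437612, with 7 and 16 peaks. Next were the chains at X 2621669 to 2638367, with 6 and 12, and at 3R 15445692 to 15458825, with 9 and 17. Scores showed the same side: the log2 ratio of replicate 2 over replicate 1 had a median of 0.12 in chain peaks and 0.02 in others, and replicate 2 scored higher in 64.4% of chain peaks and 52.7% of others.

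**Figure D5:**
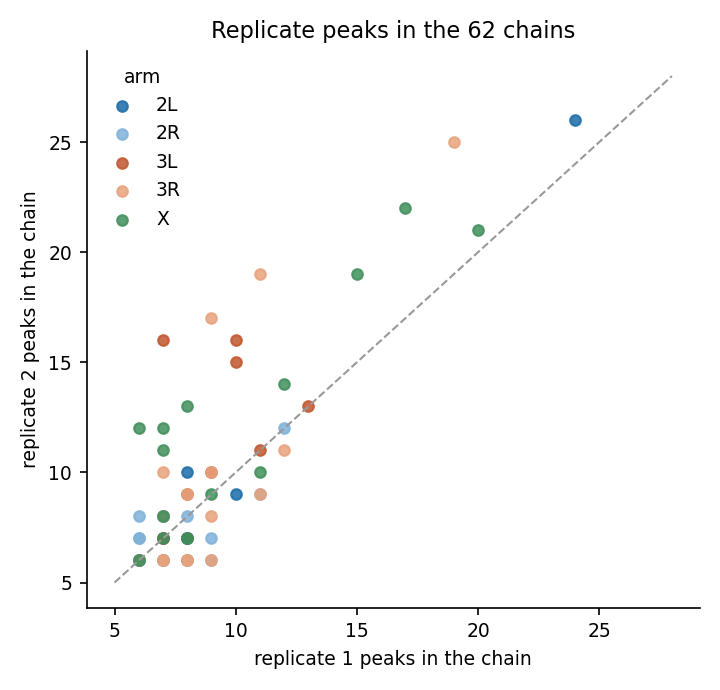
Replicate 2 peaks against replicate 1 peaks centred in each of the 62 chains, coloured by arm, with the dashed line marking equal numbers; points with the same values lie over each other. Replicate 2 has more peaks in 30 chains, up to 16 against 7 on 3L, and fewer in 20.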

How the data were processed

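The data are peak lists from MCM chromatin immunoprecipitation and sequencing (single-end reads on a Genome Analyzer II after a size selection of 150 to 200 bp, per the labels' protocols). The authors called peaks with PeakSeq and placed them on FlyBase release 5.1, as the header and caller column of each file state. Its version and settings, the aligner and the control used are not stated in these sources. Each peak carries a score as the authors deposited it, and no reads were used. Chains, medians and overlaps of at least 1 bp were computed with Python 3.11.15, NumPy 2.4.6, pandas 2.3.3 and SciPy 1.17.1, and plots with matplotlib 3.10.9. An arm was taken to end at its last peak in any of the 3 lists. A series peak took the mean score and summed width of the replicate peaks under it, and a replicate peak lay in a chain if its centre did. All 469 chain peaks held peaks of both replicates, and in the 427 with 1 peak of each the score was the mean of both within 1e-04. The code was tested on simulated data. Members, named chains and alternatives were chosen with earlier results of these data known. Named were chains of 10 or more peaks, the 5 with most peaks per arm (ties by span), extremes of span, spacing and score, those with the highest-scoring or widest peak or a peak of 2 kb, and those nearest each arm end; other chains named were chosen after their values were seen. No test was run. The gene table in hand is of Release 6, another build, so the planned description of genes was not made.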

Additional observations from a re-analysis of the deposited data

How the results depend on the processing

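How many chains there are depended on the settings. The width and score differences kept their direction in the alternatives run for them, 11 and 12 in number. They were not computed for edge-to-edge distances, the 50% lists or the 50% overlap of both replicate peaks. Nor were they computed for chains built in 1 replicate alone. Distances of 3 kb gave 21 chains, 154 peaks and 2.74% of major-arm peaks, and 10 kb gave 161, 1394 and 24.8%. A minimum of 5 peaks gave 119, 754 and 13.4%, and of 8 peaks 20, 202 and 3.599%. Joining peaks closer than 1 kb left 7 chains with 48 sites (1.05%). The higher-scoring 50% of the list gave 0 chains, 0 peaks and 0%, and the lower-scoring 50% 17, 139 and 4.95%; both lists are thinner by construction. Peaks whose replicate peaks overlapped over 50% of each gave 11, 72 and 2.14%. The replicate lists, which hold more peaks, gave 171 to 250 chains, 1851 to 2031 peaks and 21.7 to 23.6%. Edge-to-edge distances gave 67 chains and 536 peaks.

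The median width difference, 131 bp, was 176 bp at 3 kb and 77.5 bp at 10 kb. With chains of at least 5 and 8 it was 100 bp and 192.5 bp. It was 74.5 bp without intervals of 600 bp or more and 103 bp with 1 peak per replicate. All peaks of 1 replicate list, in and outside the same spans, gave 98.5 bp in replicate 1 and 74 bp in replicate 2. Those spans came from the joint list, so neither replicate was left out of the choice of chains. The score difference, -0.54, was -0.66 at 3 kb, -0.48 at 10 kb, and -0.46 and -0.82 with at least 5 and 8 peaks. It was -0.89 with peaks joined and -0.52 without broad intervals. All peaks of 1 replicate list, in and outside the spans of the joint list, gave -0.56 in replicate 1 and in replicate 2. For peaks under series peaks the difference was -0.66 in replicate 1 and -0.48 in replicate 2. Added after seeing the data were -0.52 within width classes, -0.56 with 1 peak per replicate, -0.43 without chains of 10 or more and -0.45 on autosome arms. Shared replicate peaks in spans, 87.4% and 78.5%, were 66.7% and 65.3% with 50% overlap, 79.1% and 69.3% among higher scores, and 91.0% and 84.7% with centres within 500 bp. The cause was not tested. Unknown depth limits all of these. No paired analysis was possible because the input has no peak list here and the result comes from no test.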

Other observations

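Some runs of peaks in the replicate lists held no chain of the series list. The largest was in replicate 2 at 3L 8666006 to 8706498, with 31 peaks over 40.5 kb, a median width of 140 bp and a median score of 2.34. It held 13 series peaks, in chains shorter than 6. At X 20896432 to 20944551, replicate 1 had 20 peaks over 48.1 kb and 16 series peaks, of which the chain of 7 at 20929817 to 20944551 was only a part. In replicate 2 a run of 54 peaks over 74.0 kb at 3R 25559001 to 25633004 held 21 series peaks and the chain of 8 described above, with a median score of 2.05.

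Off the major arms, the same joining distance gave no chain of 6 among 114 series peaks. The longest had 4 peaks, at 3 places. On the small chromosome 4 these were at 715651 to 718376, with scores of 4.03 to 7.16, and at 948120 to 951422, with 1.66 to 18.9. On XHet it was at 75110 to 84891, with 2.73 to 2.93. Taken alone, replicate 1 had 5 off-arm chains of 6 or more with 36 of its 317 off-arm peaks, and replicate 2 had 13 with 106 of 599.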
